A study of Homo sapiens with 2 samples.

Results

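The 8 genes described here are the multidomain members of the BCL2 family, the proteins that decide whether the mitochondrial outer membrane is breached during apoptosis. They were chosen by symbol and not by their values from the 37122 rows of an RNA-seq count table, though with earlier results of these data known. Of the 8 genes, 5 encode guardians, which hold apoptosis back (BCL2, BCL2L1, MCL1, BCL2A1 and BCL2L2), and 3 encode effectors, which form the pore (BAX, BAK1 and BOK). Ramos is an established human B-cell line from a Burkitt's lymphoma (BL). Ramos640 was derived from Ramos by growth in escalating rituximab until it resisted complement-dependent cytotoxicity (CDC). Rituximab is an antibody against CD20 that recruits complement to the B-cell surface. Both lines were grown in the same RPMI medium with fetal bovine serum and antibiotics. Only Ramos640 received rituximab, given again every 21 days with 20% normal human serum (NHS) as the source of complement. Its dose is 640 mg/mL in the sample labels and 640 μg/mL in the methods of the study. Whether Ramos640 is a single clone, and how long after the last exposure RNA was taken, is not given in the sources used here. RNA of 3 passages was pooled for each line, so there was 1 library per line, no difference has a replicate check, and no test between the lines can be made.

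In a healthy cell the guardians carry a surface groove that binds the BH3 helix of other family members and so keeps BAX and BAK from activating. BH3-only proteins, induced by stress, fill that groove or engage the effectors directly. Freed BAX and BAK then assemble in the outer membrane, and cytochrome c escapes to start the caspase cascade. Germinal centre B cells, from which BL arises, are known for low BCL2 and for dependence on MCL1, while other B cells lean more on BCL2. The study compared the lines to find pathways that went with resistance to rituximab, and apoptosis was one of those it followed.

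The shared BH3 core of the family is shown in the coding bases of the members. It lies in the BH3 helix, the part of other family members that the groove of a guardian binds. The core was searched as codons for leucine, any 3 residues, glycine and aspartate in the canonical transcript of each gene (GENCODE v44lift37, GRCh37). It was found once in each of 6 members, and 13.4% of 20249 protein-coding genes hold such a match anywhere. Each line gives 60 coding bases, with the 18 bases of the core in capitals.
BCL2 (chr18:60985573-60985632, minus strand): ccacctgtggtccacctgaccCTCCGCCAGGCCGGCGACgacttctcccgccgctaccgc
BCL2L1 (chr20:30309716-30309775, minus strand): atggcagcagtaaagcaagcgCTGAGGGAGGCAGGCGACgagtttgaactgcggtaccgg
MCL1 (chr1:150551332-150551391, minus strand): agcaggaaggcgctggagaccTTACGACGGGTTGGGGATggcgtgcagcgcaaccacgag
BAX (chr19:49459023-49459082, plus strand): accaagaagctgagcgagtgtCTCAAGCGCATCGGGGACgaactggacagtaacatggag
BAK1 (chr6:33543155-33543214, minus strand): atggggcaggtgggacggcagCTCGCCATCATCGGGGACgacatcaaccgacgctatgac
BOK (chr2:242499085-242501788, plus strand, with an intron inside): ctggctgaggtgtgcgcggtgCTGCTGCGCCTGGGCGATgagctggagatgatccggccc
The coding sequences of BCL2A1 and BCL2L2 had no match to these letters. The 6 stretches lie on different chromosomes. A processed pseudogene of BAK1 carries almost the same bases as its parent and is shown beside the BAK1 counts.

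The counts were whole reads per gene and summed to 38030090 reads in Ramos and 30871826 in Ramos640. A count of 0 allows up to 3 reads, or 0.0789 CPM in Ramos and 0.0972 CPM in Ramos640. Levels between genes are given as reads per kilobase of exon, scaled to the total reads of the library (RPKM). Differences between the libraries are log2 fold changes of Ramos640 over Ramos after median-of-ratios scaling, with 1 added to each scaled count. All intervals are 95% intervals that cover counting error only. In bulk RNA, fewer cells of a type and less RNA per cell cannot be told apart. All 5 B-cell markers (MS4A1, CD79A, CD79B, CD22 and PAX5) were read in both libraries, with summed levels of 3892 and 4489 CPM in Ramos and Ramos640. Of these, 3 were lower in Ramos640, MS4A1 (the gene of CD20, the target of rituximab) at -1.96 with 9654 and 1904 reads, PAX5 at -0.80 and CD22 at -0.39, while CD79A and CD79B were higher, at 0.57 and 0.64. The 3 germinal centre markers (BCL6, MME and CD38) summed to 718 and 492 CPM, and the part of these marker differences in the values of the members was not tested. The 4 T-cell markers held 6 reads in Ramos and 32 in Ramos640. Of these, CD3E had 1 and 31 reads, CD3G had 5 and 1, and CD3D and CD2 had none in either. The 4 monocyte markers held 5 and 13 reads, with CSF1R at 3 and 9 and ITGAM at 0 in both, and the 4 epithelial markers 42 and 16.

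Of the guardians, BCL2L1 was higher in the Ramos640 library and MCL1 was not separable between the libraries, while BCL2 and BCL2A1 were scarcely read in either line. Of the effectors, BAX was higher, BAK1 did not differ beyond counting error and BOK was at the limit of detection. These readings used median-of-ratios scaling without removal of the GC trend. The intervals of BCL2, MCL1 and BAK1 lay apart from 0 under other settings given below. Among the 7 members with at least 10 reads, 1 (BCL2) was higher in Ramos640 by more than 1.5-fold, the limit used in the study, against 14.6% of the 18778 genes with that many reads. None was lower by that much, against 17.3% of all such genes. The intervals of 3 members lay above 0, against 29.6% of all such genes, and of 0 members below 0, against 31.6%. Together, 3 of the 7 had an interval apart from 0, against 61.2% of all such genes, and 0 combined that with a difference past 1.5-fold, against 25.1%. The 5 members with at least 1000 reads (MCL1, BCL2L1, BCL2L2, BAX and BAK1) can be read against the 8226 genes of that depth, of which 6.87% were higher and 7.93% lower by more than 1.5-fold. None of the 5 passed that limit. Of the genes of that depth 40.9% had an interval above 0, 39.4% below 0 and 80.3% on either side, beside 3, 0 and 3 of the 5 members. With median-of-ratios scaling and without removal of the GC trend, the members were thus called no more often than genes at large by either measure taken in both directions. The median log2 fold change of the 7 members was 0.33, beside -0.015 for all genes with at least 10 reads (quartiles -0.40 and 0.34).

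MCL1, the short-lived guardian that sequesters BAK and the BH3-only protein BIM, was the most read member. The gene, on chromosome 1 (150533371 to 150552214), was covered by 11431 reads in Ramos and by 8617 in Ramos640. These are 48.3 RPKM (47.4 to 49.2) and 44.9 RPKM (43.9 to 45.8). Its log2 fold change was -0.027, with an interval from -0.067 to 0.014. The MCL1 transcript was thus at nearly the same scaled level in the 2 libraries, with a narrow interval that included 0. Scaled to total counts the value was -0.11 (-0.15 to -0.066).

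BCL2L1 encodes Bcl-xL, the guardian that holds both BAX and BAK. It had 4739 and 5160 reads, that is more reads in the shallower library, and its level went from 29.7 RPKM (28.9 to 30.5) in Ramos to 39.8 RPKM (38.7 to 40.9) in Ramos640. The log2 fold change was 0.50, with an interval from 0.45 to 0.56, a ratio of 1.42 that stayed under the 1.5-fold limit. It was the largest difference among the members with at least 1000 reads and stood at the 82.5th percentile of all genes with at least 10 reads. BCL2L1 is also spliced to a short, pro-apoptotic form, Bcl-xS, and gene counts do not separate the 2 forms.

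BCL2L2 encodes Bcl-w, a guardian known from testis and neurons and present in some lymphomas. The counts were 708 in Ramos and 690 in Ramos640, or 3.85 RPKM (3.57 to 4.14) and 4.62 RPKM (4.28 to 4.98). Its log2 fold change was 0.34 (0.19 to 0.50). The gene shares exons with the read-through gene BCL2L2-PABPN1, whose row held 2273 and 1957 reads, and PABPN1 itself had 2435 and 2064. The BCL2L2 and read-through rows together, summed after the values were seen, had a log2 fold change of 0.21 (0.13 to 0.29). The read-through gene (23776042 to 23795384) also spans PABPN1 (23790666 to 23795372). The sum can therefore hold reads of PABPN1 and is not a value of BCL2L2 alone. HOMEZ and PPP1R3E overlap BCL2L2 on the opposite strand, with log2 fold changes of 0.16 and -0.14, and without a stated use of strand their reads cannot be told apart from those of BCL2L2.

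BCL2, the founding guardian, had 38 reads in Ramos and 45 in Ramos640. Its level of 0.0792 RPKM (0.0561 to 0.109) and 0.116 RPKM (0.0843 to 0.155) was the lowest of the guardians in both libraries. The log2 fold change of 0.61 is the one value past 1.5-fold, but its interval ran from -0.030 to 1.29. With this scaling a difference was therefore not detectable at this depth. The value was under 1.5-fold with total counts (0.53) and with a pseudocount of 10 (0.50). With the trend over GC content subtracted, described below, it was 0.74 with an interval above 0 (0.095 to 1.41). BCL2A1 encodes A1, a guardian induced by NF-κB, and had 74 and 47 reads, or 1.96 RPKM (1.54 to 2.46) and 1.53 RPKM (1.12 to 2.03). Its log2 fold change was -0.27, with an interval from -0.83 to 0.27. Both genes were thus read at low levels in both lines, and without removal of the GC trend their differences were within counting error.

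Among the effectors, BAX, which moves from the cytosol to mitochondria when activated, had 2887 reads in Ramos and 2784 in Ramos640. Its level was 29.3 RPKM (28.3 to 30.4) and 34.9 RPKM (33.6 to 36.2), and its log2 fold change 0.33 (0.25 to 0.40). BAX and BCL2L1, an effector and its guardian, were therefore both higher in the Ramos640 library. BAK1 encodes BAK, which resides in the outer membrane. It had 1221 and 957 reads, 14.5 RPKM (13.7 to 15.4) and 14.0 RPKM (13.1 to 14.9), with a log2 fold change of 0.030 (-0.094 to 0.15). BOK, an effector that the guardians do not hold in check, had 0 reads in Ramos and 1 read in Ramos640. Both counts are at or under the floor of 3 reads, so no fold is given. The upper limit of its level was 0.0362 RPKM in Ramos and 0.0673 RPKM in Ramos640, and its antisense gene BOK-AS1 had 0 reads in both.

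**Figure D1:**
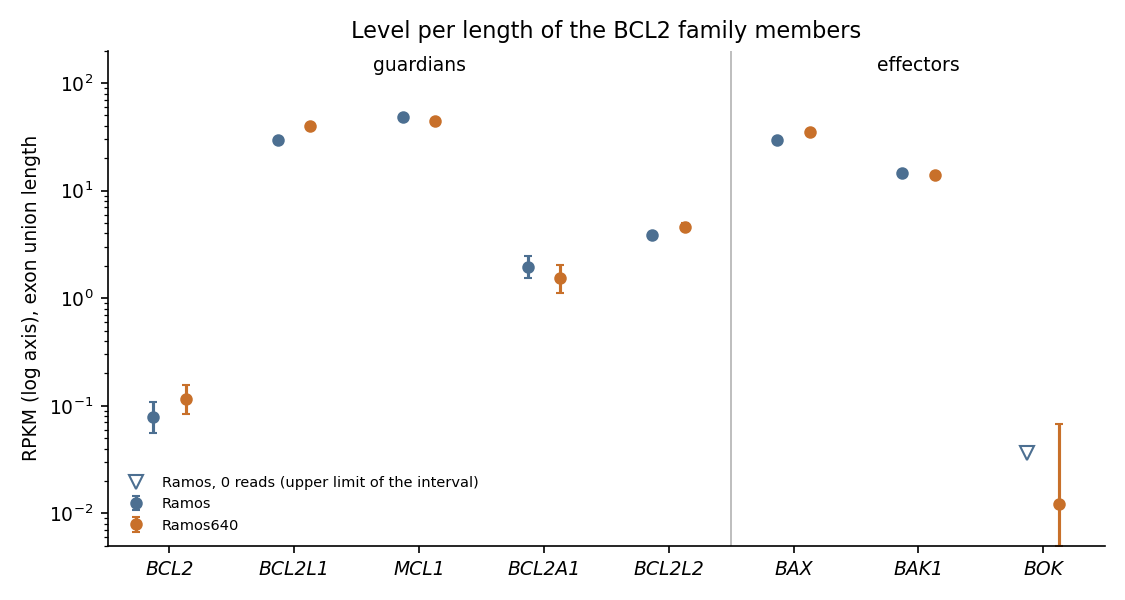
Level per length (RPKM on a log axis, union of annotated exons) of the 5 guardians and 3 effectors in the Ramos and Ramos640 libraries, with exact 95% Poisson intervals, where the open triangle marks the upper limit for a count of 0. MCL1, BCL2L1, BAX and BAK1 lie above 10 RPKM in both libraries, and BCL2 and BOK lie lowest.

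The BAK1 count carries a limit of its own. The processed pseudogene BAK1P1 on chromosome 20 (31277982 to 31278617) held 867 reads in Ramos and 649 in Ramos640, which is 35.8 and 33.1 RPKM and so above the level per length of its parent in both libraries. Its 636 bases differ from the BAK1 coding sequence, stop codon included, at 11 positions, an identity of 98.3%. Over the BH3 core only 1 of 60 bases differs, as the same stretch of the pseudogene shows.
BAK1P1 (chr20:31278348-31278407, minus strand): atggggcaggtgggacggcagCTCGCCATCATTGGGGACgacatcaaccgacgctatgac
The longest run without a difference is 159 bases, and 15.3% of the 537 windows of 100 bases in BAK1P1 occur unchanged in the BAK1 transcript. How reads that fit both were counted is not stated, and their part in either row was not tested. BAK1P1 had a log2 fold change of -0.037 (-0.19 to 0.11), close to that of BAK1. BAK1P2, a pseudogene on chromosome 11, had 1 and 4 reads. The 3 rows together had 2089 reads in Ramos and 1610 in Ramos640, and a log2 fold change of 0.0053 (-0.089 to 0.10). Without removal of the GC trend, no BAK1 difference was therefore detectable with or without the pseudogenes. With that trend subtracted the BAK1 row came to -0.14 (-0.27 to -0.021), and the sum was not computed under that setting.

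**Figure D2:**
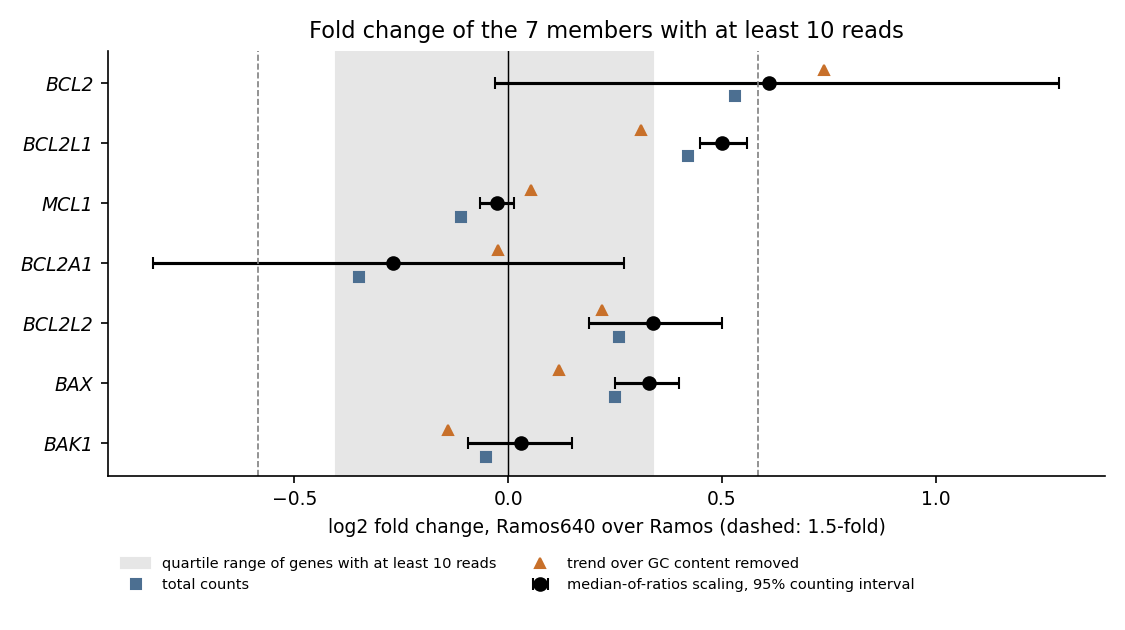
Log2 fold change of Ramos640 over Ramos for the 7 members with at least 10 reads (black points with 95% counting intervals), with squares for scaling to total counts, triangles for values with the GC trend subtracted, a grey band for the quartiles of all genes with at least 10 reads and dashed lines at 1.5-fold. BCL2L1 (0.50), BCL2L2 (0.34) and BAX (0.33) have intervals above 0, and those of BCL2 and BCL2A1 are the widest.

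The scale of the libraries and the base composition of the transcripts both touched these values. Total counts moved the median of all genes by -0.080 on the log2 scale, and on that scale BCL2L1 was at 0.42, BCL2L2 at 0.26 and BAX at 0.25. GC-rich transcripts tended to be higher in Ramos640. The running median of the log2 fold change, taken along GC content in 10193 protein-coding genes, was 0.19 at the GC content of BCL2L1 (56.6%) and 0.21 at that of BAX (60.8%). With this trend subtracted, BCL2L1 stood at 0.31 (0.26 to 0.37), BCL2L2 at 0.22 (0.071 to 0.38) and BAX at 0.12 (0.046 to 0.20). BAK1, with 58.6% GC, came to -0.14 (-0.27 to -0.021). MCL1 came to 0.053 (0.013 to 0.094) and BCL2 to 0.74 (0.095 to 1.41). BCL2L1, BCL2L2 and BAX were thus higher in Ramos640 under each of these settings, and the sign for MCL1 and for BAK1 depended on the setting. The interval of BCL2 lay above 0 only with the trend subtracted.

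**Figure D3:**
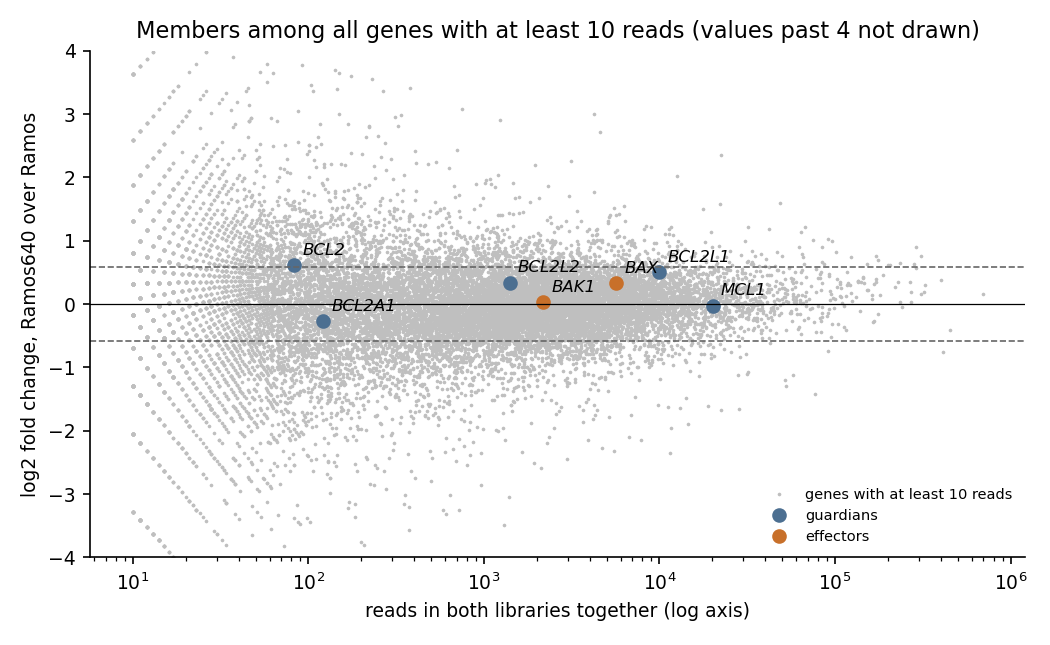
Log2 fold change of Ramos640 over Ramos against the reads of both libraries together (log axis) for the 18778 genes with at least 10 reads (grey, values past 4 in either direction not drawn), with guardians in blue, effectors in orange and dashed lines at 1.5-fold. The 5 members with at least 1000 reads lie between the dashed lines, and BCL2 lies at the upper one among genes with few reads.

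The ratio of the reads of 2 members within a library needs neither scaling nor a length, though it still moves with the GC trend. These ratios were computed after the values were seen, for all 15 pairs of the 6 members with at least 100 reads. The interval of the change lay apart from 0 for 10 pairs and included 0 for 5. No such share was computed for pairs of other genes, with or without the GC trend, so these counts cannot be called particular to the members or not. Of single genes, 61.2% with at least 10 reads and 80.3% with at least 1000 had an interval apart from 0. There were 0.415 reads of BCL2L1 per read of MCL1 in Ramos and 0.599 in Ramos640, a change of 0.53 on the log2 scale (0.46 to 0.60). Against BAX, MCL1 went from 3.96 to 3.10 reads per read, a change of -0.36 (-0.44 to -0.27). BCL2L1 against BAX went from 1.64 to 1.85, a smaller change of 0.18 (0.080 to 0.27). Within the effectors, BAX per read of BAK1 went from 2.36 to 2.91 (0.30, interval 0.15 to 0.44). This and the other ratios with BAK1 leave out the reads of BAK1P1. For MCL1 against BAK1 the change of -0.056 had an interval from -0.19 to 0.074. For BCL2L1 against BCL2A1 and BAK1 the changes were 0.78 (0.23 to 1.34) and 0.47 (0.34 to 0.61). Against BCL2L2 the change of 0.16 had an interval that included 0 (-0.0040 to 0.32). BCL2L1 was thus higher in Ramos640 relative to MCL1, BCL2A1, BAX and BAK1, and not separably so relative to BCL2L2.

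With the GC trend subtracted, which was added after the values were seen, the interval lay apart from 0 for 7 of the 15 pairs, 6 of them in the same direction as before. BCL2L1 against MCL1 came to 0.26 (0.19 to 0.33), and MCL1 against BAX to -0.069 (-0.15 to 0.017). BCL2L1 against BAX came to 0.19 (0.096 to 0.29), against BAK1 to 0.46 (0.32 to 0.59) and against BCL2A1 to 0.34 (-0.21 to 0.90). MCL1 against BAK1 came to 0.20 (0.067 to 0.33). BCL2L1 was thus higher in Ramos640 relative to MCL1, BAX and BAK1 with and without the trend, while the interval for MCL1 against BAX included 0 once the trend was subtracted.

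Per length, MCL1 made up 57.6% of the summed guardian RPKM in Ramos and 49.3% in Ramos640, and BCL2L1 35.4% and 43.8%. BCL2L2 held 4.59% and 5.08%, BCL2A1 2.33% and 1.68%, and BCL2 0.0945% and 0.127%. BAX held 66.9% and 71.3% of the summed effector RPKM and BAK1 33.1% and 28.7%. The BAK1 level used here is that of its own row. BAK1P1 held 867 reads in Ramos and 649 in Ramos640, and how many of them came from BAK1 was not tested. The shares, the effector sum and the ratio of the 2 roles were not computed with these reads added. The summed guardians were 83.9 RPKM in Ramos and 90.9 RPKM in Ramos640, and the summed effectors 43.9 and 48.9. Guardians over effectors came to 1.91 (1.85 to 1.98) in Ramos and 1.86 (1.79 to 1.93) in Ramos640, a log2 change of -0.040 with an interval from -0.11 to 0.033. Without removal of the GC trend, the guardian and effector sums thus differed little in proportion between the libraries, while the leading guardians differed in their shares. The sums were not computed with that trend subtracted. It stood at -0.080 for MCL1, 0.19 for BCL2L1, 0.21 for BAX and 0.17 for BAK1, so it can move the ratio.

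**Figure D4:**
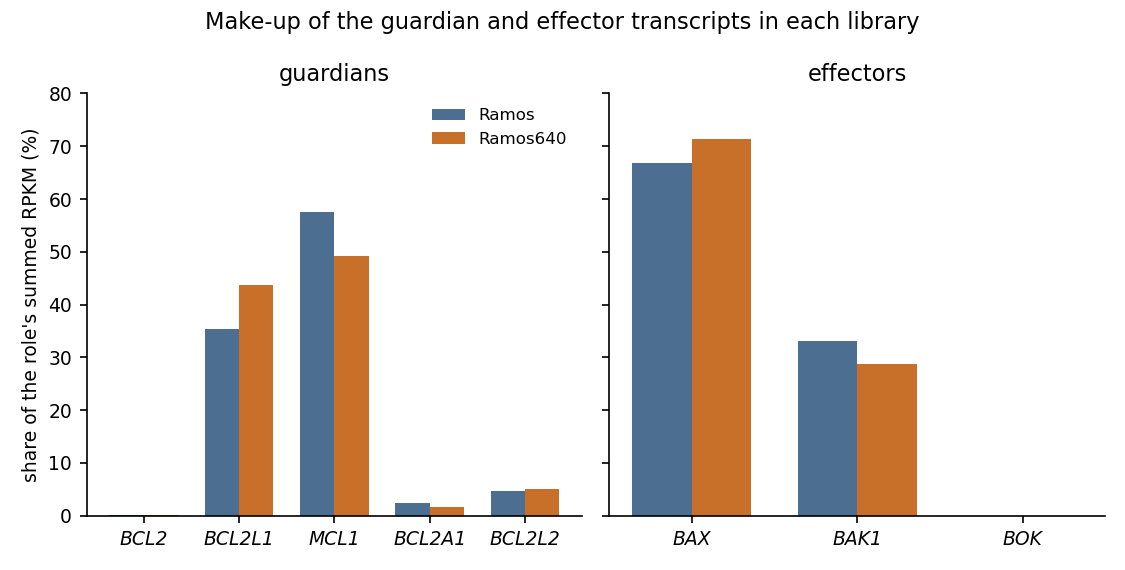
Share of each gene in the summed RPKM of its role (percent, union of annotated exons), for the 5 guardians and the 3 effectors in Ramos (blue) and Ramos640 (orange), without error bars. MCL1 makes up 57.6% and 49.3% of the guardian sum and BCL2L1 35.4% and 43.8%, and BCL2 and BOK are too low to see. The BAK1 bars leave out the reads of BAK1P1.

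The order of levels depended on the length taken for each gene. With the union of exons it was MCL1, BCL2L1, BAX, BAK1, BCL2L2, BCL2A1, BCL2 and BOK in both libraries, and BCL2L1 and BAX did not differ beyond their intervals in Ramos. With the longest protein-coding transcript, BAX (55.9 RPKM in Ramos and 66.4 in Ramos640) stood above BCL2L1 (38.8 and 52.0). With the canonical transcript, which is 795 bases for BAX, BAX led with 95.5 and 113 RPKM, ahead of MCL1 with 76.1 and 70.7. BAK1, BCL2L2, BCL2A1, BCL2 and BOK kept their places under all 3 lengths. The ratio of guardians to effectors was then 1.20 and 1.13 in the 2 libraries with the canonical transcript, and its log2 change was -0.090 (-0.17 to -0.015). The ratio itself therefore depended on the gene model, and its difference between the libraries was small under each of the 3 lengths. Neither was computed with the GC trend subtracted or with the reads of BAK1P1 added to BAK1.

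The members lie on 8 chromosomes, and their neighbours were read to see whether a member differed alone. BCL2 is on chromosome 18 from 60790579 to 60987361. Its 20 nearest protein-coding genes with at least 100 reads had a median log2 fold change of -0.19, 14 of them were lower in Ramos640, and 19 had a lower value than BCL2. BCL2 itself had only 83 reads and a wide interval, from -0.030 to 1.29, so its place among them is uncertain. With the GC trend subtracted the median of these neighbours was 0.071, and BCL2 itself was at 0.74. The genes beside it, PHLPP1 and KDSR, were at -0.16 and -0.31. BCL2L1 is on chromosome 20 from 30252255 to 30311792. Its neighbours had a median of 0.16, with 16 of 20 higher in Ramos640 and 16 of 20 below BCL2L1. The adjacent genes ID1 (-0.59) and TPX2 (-0.090) were lower.

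BAX is on chromosome 19 from 49458072 to 49465055, and 15 of its 20 neighbours, with a median of 0.10, were below it. The adjacent genes NUCB1 and FTL were at 0.36 and -0.16. The neighbours of BCL2L2 on chromosome 14 (23767999 to 23780960) had a median of 0.066 and those of BAK1 on chromosome 6 (33540324 to 33548070) a median of 0.17. BCL2A1 on chromosome 15 (80253234 to 80263538) had neighbours with a median of -0.056. Those of MCL1 had a median of -0.011. BOK on chromosome 2 (242490839 to 242513546) had only 15 such neighbours, 12 of them higher in Ramos640. Of these, THAP4 and STK25 lie nearest to BOK and had log2 fold changes of 0.14 and 0.48.

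**Figure D5:**
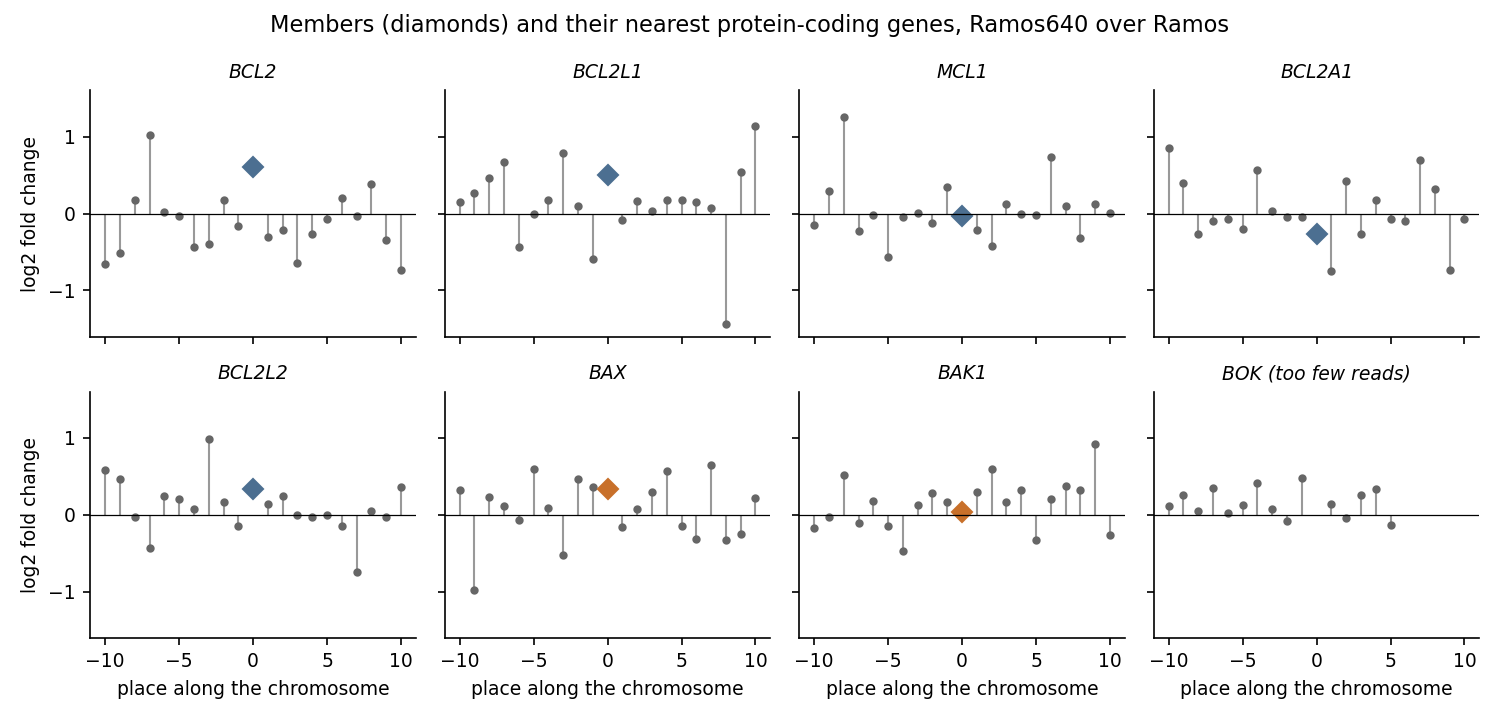
Log2 fold change of Ramos640 over Ramos for each member (diamond, guardians blue, effectors orange) and for up to 10 protein-coding genes with at least 100 reads on each side (grey), by place along the chromosome. BCL2, with an interval from -0.030 to 1.29 that is not drawn, lies above 19 of its 20 neighbours. MCL1 and BAK1 lie within theirs, and BOK has too few reads for a value.

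The rest of the mitochondrial pathway was read from lists of its genes. Of the 8 BH3-only genes, all with at least 10 reads, 2 were higher and 1 was lower by more than 1.5-fold, beside 14.6% and 17.3% of all genes with that many reads. For 4 of them the interval was above 0 and for 2 it was below, beside 29.6% and 31.6% of all such genes, and the median log2 fold change was 0.27. BCL2L11, which encodes BIM, the ligand of all guardians, had the highest value of the list, with 904 and 1211 reads (0.80, interval 0.68 to 0.93). BBC3, which encodes PUMA, had the lowest, with 95 and 31 reads (-1.21, interval -1.87 to -0.64). PMAIP1, which encodes NOXA, the ligand of MCL1, had 1354 and 1021 reads (-0.026, interval -0.14 to 0.092). BAD, a ligand of BCL2 and Bcl-xL, had 328 and 352 reads (0.48, interval 0.26 to 0.70), and BMF had 637 and 824 (0.75, interval 0.60 to 0.90). HRK had 97 and 110 reads (0.56, interval 0.16 to 0.97). BIK, with 8981 and 6513 reads, was the most read of the list (-0.082, interval -0.13 to -0.036). BID, which is cut by caspase 8 and then activates the effectors, had 2551 and 2044 reads (0.061, interval -0.023 to 0.15).

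Of the 5 other BCL2-like genes, only BCL2L12 (0.18) and BCL2L13 (0.37) had at least 10 reads. Among 9 partners of the outer membrane, such as the VDAC channels and the fission protein DNM1L, none passed 1.5-fold and the median was -0.047. Their interval was above 0 for 2 and below 0 for 4. Of all genes with at least 10 reads, 31.9% passed 1.5-fold in either direction, 29.6% had an interval above 0 and 31.6% below. All 9 partners had at least 1000 reads, and for genes of that depth these shares were 14.8%, 40.9% and 39.4%. VDAC2, which brings BAK to the membrane, had 4110 and 2930 reads (-0.11, interval -0.18 to -0.038). Among 7 released factors and apoptosome genes none passed 1.5-fold and the median was 0.075, with the interval above 0 for 3 and below 0 for 2. Of the 7 genes of MCL1 turnover, 6 had at least 10 reads, none passed 1.5-fold and the median was -0.17, or -0.37 over those with at least 100 reads. The interval was above 0 for 1 of the 6 and below 0 for 3. USP9X, a deubiquitinase that stabilises MCL1, had 2897 and 1526 reads (-0.54, interval -0.63 to -0.45), and HUWE1, a ligase that marks MCL1 for degradation, 19148 and 14941 (0.023, interval -0.0078 to 0.054). MARCH5 was not analysed here.

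Of 10 transcription factors known to act on these genes, 3 were higher and 1 was lower by more than 1.5-fold, with a median of 0.16. Over all genes with at least 10 reads these shares were 14.6% and 17.3%. All 10 had at least 1000 reads in both libraries together, and for genes of that depth the shares were 6.87% and 7.93%. The interval was above 0 for 5 factors and below 0 for 3, beside 40.9% and 39.4% of genes of that depth. In value 6 of the factors were higher and 4 lower. RELB, a subunit of NF-κB, had the highest value, with 2065 reads in Ramos and 3486 in Ramos640 (1.14, interval 1.06 to 1.22). NFKB2, its partner in the noncanonical pathway, had 1821 and 2623 reads (0.91, interval 0.82 to 0.99), and MYC, the oncogene of BL, 16186 and 21564 (0.79, interval 0.77 to 0.82). RELA stood at 0.56 and STAT3 at 0.30, while NFKB1 (0.023) and STAT5B (-0.070) had intervals that included 0. STAT5A, which can induce BCL2L1, was lowest, at 1336 and 683 reads (-0.59, interval -0.72 to -0.45). BCL6, which represses BCL2 and BCL2L1 in germinal centre cells, had 10949 and 6530 reads (-0.36, interval -0.41 to -0.32). REL, which can induce BCL2A1 and BCL2L1, had 862 and 458 reads (-0.53, interval -0.70 to -0.37). These regulators were measured as RNA alone, and their part in the values of the members was not tested.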

How the data were processed

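RNA-seq libraries of Ramos and Ramos640 cells, 1 per line, were made from RNA pooled over 3 passages with an Ion Total RNA-seq kit. The authors trimmed adaptors, used MapSplice for alignment to GRCh37, and deposited raw counts of reads per gene. The counting program, annotation, use of strand and treatment of reads that fit several genes are not given in the sources used here. Some rows carry spreadsheet dates in place of names and were not traced.

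From the counts, median-of-ratios size factors (1.14 and 0.876), log2 fold changes with a pseudocount of 1, and Clopper-Pearson intervals were computed with Python 3.11.15 and scipy 1.17.1. TMM factors came from edgeR 4.0.16. Levels used exact Poisson intervals. Intervals of ratios of summed levels used Poisson errors on the log scale, and those of 2-gene ratios the conditional odds ratio. PCR reads are not independent molecules. Genes needed at least 10 reads in both libraries together (18778 genes), and neighbours 100. Lengths, positions and GC content came from GENCODE v44lift37. Current symbols linked 26511 rows to that annotation and older symbols 2282 more, and all 8 members were linked. With 1 library per line no dispersion could be estimated and no test was run. The size factors, the log2 fold changes with their intervals and the running median over GC content were tested on simulated data. The simulated counts held counting error only, and the other steps were not tested in this way.

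All members are named, with the largest value past 1.5-fold in each direction of every list, the BH3-only genes, copies and read-through genes by symbol, and adjacent genes. Other list genes were named after their values were seen. Some genes of the marker and transcription factor lists are not reported here, and the lists were summarised without them. The members and lists were chosen with earlier results of these data known. Alternatives were other scalings, pseudocounts, minimum reads, gene lengths and removal of the GC trend. The pseudogene and read-through sums and the 2-gene ratios, with and without the GC trend, were added after the values were seen.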

Additional observations from a re-analysis of the deposited data

How the results depend on the processing

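No paired analysis was possible because each line has 1 library, and for the same reason no replicate could be left out. The number of members with an interval apart from 0 was 3, and came to 4 with total counts and to 6 with the GC trend removed. The share of all genes with such an interval is not given for these 2 settings, so their counts cannot be read against genes at large. BCL2L1, BCL2L2 and BAX, whose reported intervals lay above 0, were above 0 under every scaling, pseudocount and GC alternative, and 30 of the alternative values of single members, against 7 that did not, lay inside the interval of the value reported. The ratio of guardians to effectors was 1.74 and 1.63 (Ramos and Ramos640) with the longest protein-coding transcript, 1.20 and 1.13 with the canonical one, 0.811 and 0.943 without MCL1, and 5.78 and 6.48 without BAX. Its log2 change, -0.040, became 0.22 without MCL1 and 0.17 without BAX. With the canonical transcript 5 of the 8 members kept their rank of level in either library. With total counts the median of the outer membrane partners was -0.13 and that of the transcription factors 0.080. Without the GC trend the outer membrane partners came to 0.084 and the released factors to -0.078. Other than in the gene lengths and genes left out by these settings, the cause was not tested. Depth limits BCL2, BCL2A1 and BOK, which had under 100 reads in each library.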
